A study of Mus musculus with 16 samples.

Results

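The NKR-P1 receptors are C-type lectin-like proteins on the surface of natural killer (NK) cells, and the Clr proteins that several of them bind are encoded beside them in the NK gene complex. Klrb1a (NKR-P1A), Klrb1c (NKR-P1C, which carries the NK1.1 antigen of some strains) and Klrb1f (NKR-P1F) encode receptors of the activating kind, whereas Klrb1b encodes an inhibitory receptor that recruits the phosphatase SHP-1. Clec2d encodes Clr-b, the ligand of the Klrb1b product and a widely expressed sign of self, and Clec2i encodes Clr-g, a ligand of the Klrb1f product. These 6 genes were taken by symbol from a table of 49671 genes, in which each symbol stood for 1 row. All 6 passed the filter on low counts, as did 13940 genes in total.

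NK cells, sorted as live CD45+ CD3- NKp46+ DX5+ cells, came from lungs and from axillary tumour-draining lymph nodes (LN). All mice had the genotype Cdh1F/F;Trp53F/F;Foxp3GFP-DTR on an FVB/N background and carried an orthotopic transplant of a KEP mammary tumour that had reached 100 mm2. The alleles give Foxp3-expressing cells, chiefly regulatory T cells, the receptor for diphtheria toxin (DT). The 4 groups of 4 libraries were lung DT and lung PBS, and LN DT and LN PBS. DT mice were given 25 µg at T = 0 and T = 7 and PBS mice were given PBS at the same times; the unit of T is not stated in the labels, nor is the age of the mice. No group analysed here lacked the DTR allele, so that loss of Foxp3-expressing cells and other effects of the toxin cannot be told apart. The design text calls the 4 libraries of a group biological replicates. Lungs were digested with Liberase, which the labels do not state for LN, and the labels give the sorted cells per sample as 5-10K.

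Levels are given in CPM, counts per 1e6 counts of a library after TMM scaling. The total count lay between 3929560 and 10744934 per library. Mitochondrial transcripts made up 3.11 to 4.40% of counts in lung DT and 0.951 to 2.57% in lung PBS, and 1.24 to 4.93% in LN DT and 1.05 to 1.68% in LN PBS. The DT libraries numbered 1, lung and LN, differed from all others: Malat1, a nuclear RNA, was at 17120 and 18183 CPM in them and at no more than 8495 CPM elsewhere. Results are therefore also given without this pair of libraries where a call or direction differs. The NK list (Ncr1, Itga2, Ptprc, Eomes, Tbx21, Klrk1, Prf1 and Gzma) had counts for all 8 genes in every group. Its summed level was 21040 to 53996 CPM in lung DT and 30353 to 33459 CPM in lung PBS, and 28128 to 58533 CPM in LN DT and 17751 to 22574 CPM in LN PBS. Gzma weighs heavily in this sum. It averaged 18572 CPM in lung DT and 17806 in lung PBS, and 20490 in LN DT and 6271 in LN PBS. With DT in LN, 6 of the 8 genes had a log2 fold change above 0, Gzma the largest (1.71). Ncr1 was at 0.03, and Eomes (-0.33) and Tbx21 (-0.64) were below 0. None of the 8 was called there by edgeR's test. The sum therefore does not measure the share of NK cells. Foxp3 averaged 0.875 CPM or less in each group, so the NK libraries hold no check of the depletion itself.

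The 6 genes lie on chromosome 6 of GRCm38. On the minus strand are Klrb1a (ENSMUSG00000030361) at chr6:128609227-128623533, Klrb1c (ENSMUSG00000030325) at chr6:128778485-128789215 and Klrb1b (ENSMUSG00000079298) at chr6:128813706-128826331. On the plus strand are Clec2i (ENSMUSG00000030365) at chr6:128887588-128898167, Klrb1f (ENSMUSG00000030154) at chr6:129045901-129057464 and Clec2d (ENSMUSG00000030157) at chr6:129180615-129186534. All are protein-coding. The 250 bases before the RefSeq start (RefSeq, GRCm38.p6) are shown for the 4 receptors, because Klrb1a and Klrb1c varied together over the libraries while Klrb1b and Klrb1f differed between lung and LN in opposite directions. The Klrb1a and Klrb1c windows lie inside the gene spans given above, and the last bases of the Klrb1b window lie inside its span. The windows are thus not all upstream of the annotated genes. Capitals mark TGTGGT, a RUNX-type motif, and GGAAGT, an ETS-type motif, the second printed as ACTTCC where it lies on the other strand.
Klrb1a, minus strand, chr6:128622935-128623184: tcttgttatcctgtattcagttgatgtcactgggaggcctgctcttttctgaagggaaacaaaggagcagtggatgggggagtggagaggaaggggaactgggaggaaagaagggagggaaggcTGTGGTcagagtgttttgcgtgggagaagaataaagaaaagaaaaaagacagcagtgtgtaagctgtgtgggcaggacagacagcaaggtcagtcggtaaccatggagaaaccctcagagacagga
Klrb1c, minus strand, chr6:128788642-128788891: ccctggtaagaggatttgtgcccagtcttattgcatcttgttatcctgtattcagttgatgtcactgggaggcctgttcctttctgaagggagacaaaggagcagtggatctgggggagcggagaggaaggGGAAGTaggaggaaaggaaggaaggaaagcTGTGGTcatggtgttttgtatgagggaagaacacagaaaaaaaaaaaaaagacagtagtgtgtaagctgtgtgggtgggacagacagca
Klrb1b, minus strand, chr6:128826316-128826565: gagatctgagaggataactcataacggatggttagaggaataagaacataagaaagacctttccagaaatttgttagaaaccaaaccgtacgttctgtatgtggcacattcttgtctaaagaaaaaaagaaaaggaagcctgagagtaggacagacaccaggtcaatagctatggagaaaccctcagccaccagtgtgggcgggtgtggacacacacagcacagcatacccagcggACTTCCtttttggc
Klrb1f, plus strand, chr6:129045651-129045900: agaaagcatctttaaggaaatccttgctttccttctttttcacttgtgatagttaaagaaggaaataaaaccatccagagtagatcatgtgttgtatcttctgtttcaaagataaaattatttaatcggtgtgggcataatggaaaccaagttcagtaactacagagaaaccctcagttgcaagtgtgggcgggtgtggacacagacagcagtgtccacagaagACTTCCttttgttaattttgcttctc

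The Klrb1a and Klrb1c windows were identical at 188 of 215 aligned positions (87.4%). Both held TGTGGT, beginning 126 bases before the RefSeq start of Klrb1a and 89 bases before that of Klrb1c, and Klrb1c also held GGAAGT. The Klrb1b and Klrb1f windows were identical at 74 of 94 aligned positions (78.7%), a stretch that takes in the single ACTTCC of each. TGTGGT or its reverse complement occurs in 14.2% of 27025 promoters of the same length, and GGAAGT in 19.99%. AGGTGT (T-box type), TGANTCA (AP-1 type) and TTCNNNGAA (STAT type) were searched on both strands as well and had no match in any of the 6 windows, against 11.99%, 6.87% and 7.18% of all promoters. Clec2d and Clec2i matched none of the 5 motifs. The searched motifs do not overlap one another in these windows, and a match describes letters only.

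Per length of exon, Klrb1f, Klrb1a and Klrb1c were the high members and Clec2d the low one. Averaged over the 16 libraries, the level was 264 CPM per kb for Klrb1f, 264 for Klrb1a, 240.3 for Klrb1c and 116 for Klrb1b. Clec2i stood at 37.4 and Clec2d at 9.41 CPM per kb. Of 13919 tested genes with a length, Klrb1f, Klrb1a and Klrb1c ranked 157th, 159th and 176th, while Clec2i ranked 1534th and Clec2d 4961st. An annotated read-through gene on the same strand, Gm44511, shares 599 exon bases with Klrb1b (26.9% of its exon length) and 413 with Klrb1c (13.9%), and had 0 counts in all libraries. With these bases left out of the length, Klrb1b stood at 159 and Klrb1c at 279 CPM per kb. The order of Klrb1a, Klrb1c and Klrb1f thus turns on that choice, whereas Klrb1b, Clec2i and Clec2d kept their places below them. Of the 50-base stretches of each gene, 27.2% in Klrb1b, 17.0% in Klrb1c and 9.92% in Klrb1a also occur in another gene, against 4.10% in Clec2i, 1.98% in Clec2d and 0 in Klrb1f. Levels of Klrb1a, Klrb1b and Klrb1c are uncertain to that extent, since how the authors counted shared reads is not stated. Most of the sharing of Klrb1b (25.5% of its stretches) and Klrb1c (12.4%) was with Gm44511. Klrb1a shared 6.35% of its stretches with Klrb1c, and Klrb1c 3.56% of its own with Klrb1a. The reference sequence is that of C57BL/6J and the mice were FVB/N, and what this does to the counts was not tested.

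**Figure D1:**
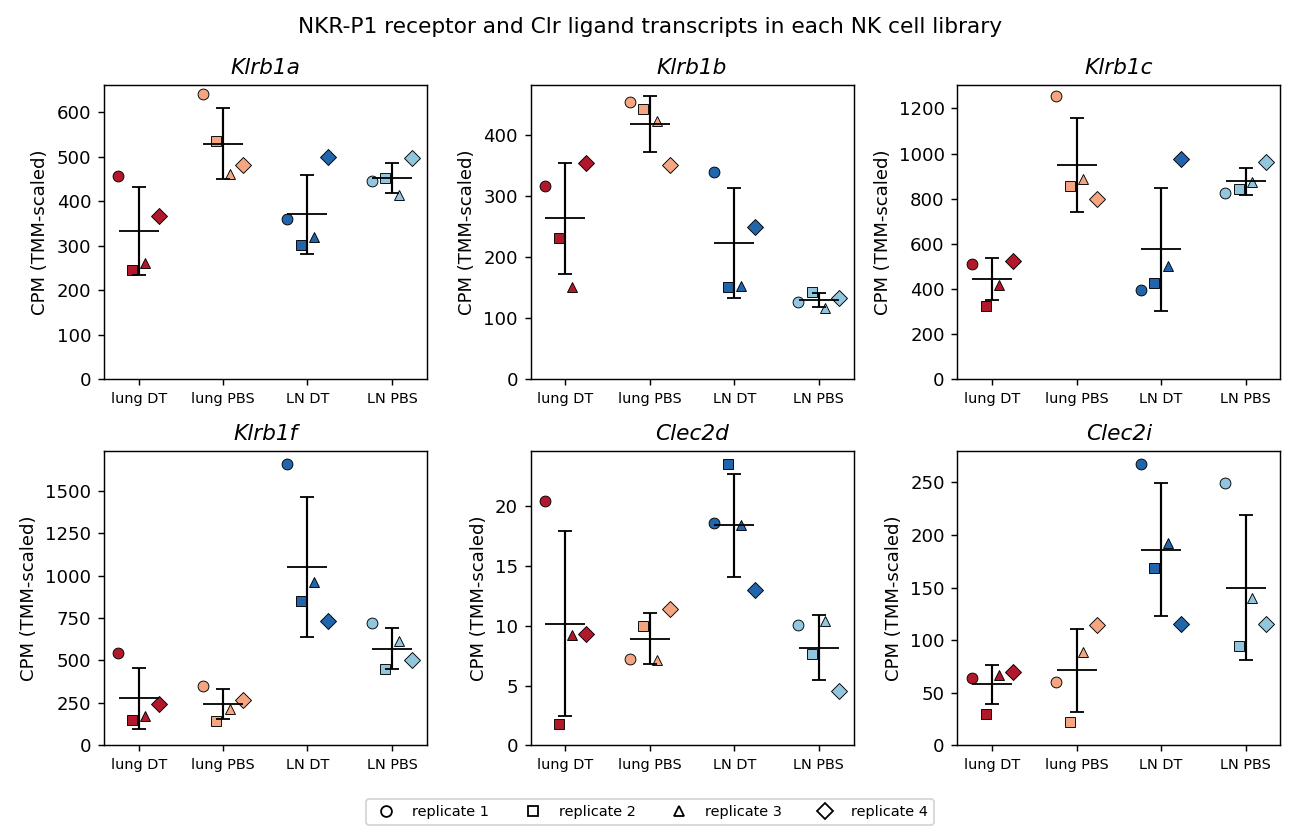
TMM-scaled CPM of the 6 genes in each library, with the groups on the horizontal axis; symbols give the replicate number and bars the mean and SD of 4 libraries. Klrb1c in all 4 lung DT libraries (324 to 524 CPM) lies below lung PBS (801 to 1256 CPM), and Klrb1f is highest in LN DT (734 to 1657 CPM).

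Klrb1c was the member that fell with DT. It had 510.0, 324, 418 and 524 CPM in lung DT, against 1256, 854, 888 and 801 CPM in lung PBS. In LN, it had 395, 425, 504 and 977 CPM in LN DT, against 827, 844, 875 and 960.3 CPM in LN PBS. All lung DT libraries were below all lung PBS libraries, and 3 of 4 LN DT libraries were below all LN PBS libraries, while LN DT replicate 4 was the highest LN library. Averaged over both tissues, Klrb1c was 1.80-fold lower with DT (log2 fold change -0.85 ± 0.20 SE, 95% interval -1.27 to -0.43, adjusted p = 0.0323, edgeR's quasi-likelihood test over all 13940 genes, Benjamini-Hochberg). It was the only member of 6 called in this average, where 3.9% of all genes were called and 1.43% were called lower. The test took all libraries as independent, whereas same-numbered lung DT and LN DT libraries deviated together (correlations of 0.184 to 0.412). The SE and adjusted p of the average may therefore be too small.

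Within a single tissue the fall of Klrb1c did not pass the test. In lung its log2 fold change was -1.09 ± 0.28 (adjusted p = 0.122, edgeR's quasi-likelihood test), and in LN it was -0.61 ± 0.28 (adjusted p = 0.414, the same test). The difference between the tissues' effects, LN minus lung, was 0.49 ± 0.40 (95% interval -0.35 to 1.33). The averaged call was lost, with adjusted p between 0.0511 and 0.0868 by edgeR's test, on leaving out LN DT replicate 1 (-0.82), 2 (-0.80) or 3 (-0.83), LN PBS replicate 1 (-0.87), 2 (-0.86), 3 (-0.86) or 4 (-0.83), lung DT replicate 2 (-0.79) or 3 (-0.84), or lung PBS replicate 1 (-0.77), 2 (-0.93) or 3 (-0.92). Without LN DT replicate 4 it was -1.05, with an adjusted p of 0.00347 by edgeR's test. Without the 2 Malat1-high libraries the averaged value was -0.85 (adjusted p = 0.0217) and the lung value -1.24 (adjusted p = 0.0335), both by edgeR's test.

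Klrb1c was low where the mitochondrial share of the libraries was high. In the 7 DT libraries other than LN DT replicate 4, the share was 3.11 to 4.93% and Klrb1c 324 to 524 CPM. LN DT replicate 4 had a share of 1.24% and 977 CPM of Klrb1c, both within the range of the 8 PBS libraries (0.951 to 2.57% and 801 to 1256 CPM). The part of the mitochondrial share in the Klrb1c result was not tested. In sorted bulk RNA, fewer cells that express a gene and less of its RNA per cell cannot be told apart.

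**Figure D2:**
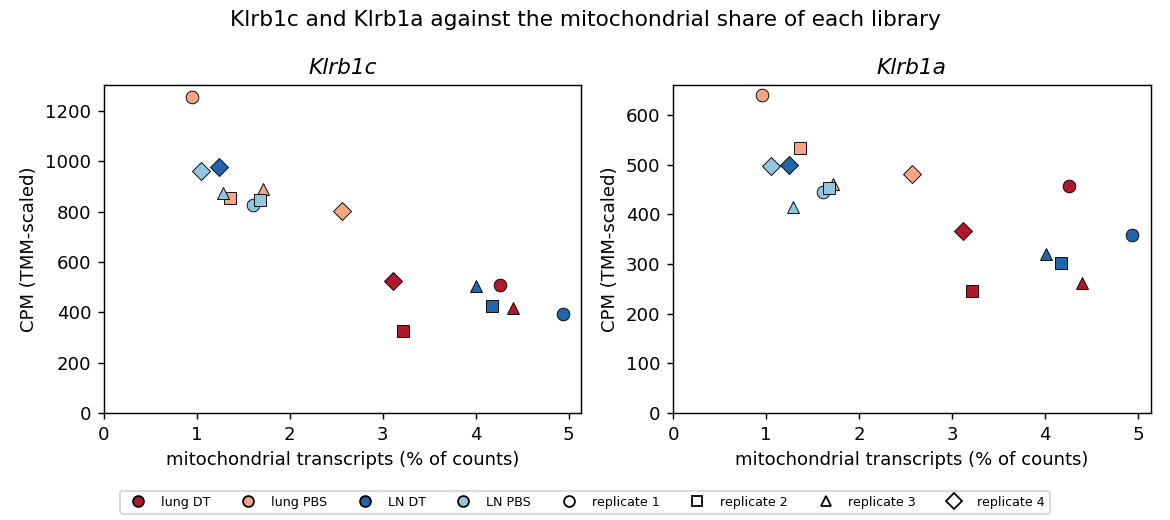
CPM of Klrb1c (left) and Klrb1a (right) against the percent of counts from mitochondrial transcripts, 1 point per library, coloured by group, with symbols for the replicate number. LN DT replicate 4 (1.24%) has 977 CPM of Klrb1c and lies among the PBS libraries, and the other 7 DT libraries lie between 3.11 and 4.93% with 324 to 524 CPM.

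Klrb1a, which also encodes a receptor of the activating kind, was lower in the same libraries by less. It had 457, 245, 261 and 367 CPM in lung DT, against 641, 534, 460.3 and 482 CPM in lung PBS. The LN values were 359, 302, 321 and 500.0 CPM in LN DT, against 444, 453, 414 and 497 CPM in LN PBS. The lung groups did not overlap, although the highest DT library was within 4 CPM of the lowest PBS library, and the LN groups overlapped through LN DT replicate 4. The log2 fold change was -0.67 ± 0.24 in lung, -0.29 ± 0.24 in LN and -0.48 ± 0.17 in the average, with adjusted p of 0.229, 0.679 and 0.109 by edgeR's quasi-likelihood test. Without the 2 Malat1-high libraries, Klrb1a was called in lung (-0.93, adjusted p = 0.0400) and in the average (-0.60, adjusted p = 0.0321) by the same test.

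The count of Klrb1a over that of Klrb1c shows the unequal difference without any scaling between libraries. The ratio was 0.745 ± 0.115 in lung DT and 0.564 ± 0.058 in lung PBS, and 0.692 ± 0.167 in LN DT and 0.516 ± 0.030 in LN PBS (SD, n = 4 each). The lung ranges met at 0.624 in DT and 0.626 in PBS. The highest ratios, 0.910 and 0.896, were those of LN DT replicate 1 and lung DT replicate 1, and LN DT replicate 4 (0.512) lay within the LN PBS range of 0.474 to 0.537. Over the 16 libraries, the root mean square difference between the centred log2 CPM of both genes was 0.282, the smallest between any 2 of the 6 members. Of 8419 protein-coding genes compared, 0.380% were closer to Klrb1c than Klrb1a was, and 1.25% were closer to Klrb1a than Klrb1c was.

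Klrb1b, the inhibitory receptor, differed between tissues in PBS mice and had opposite signs with DT in lung and LN. It had 317, 232, 151 and 354 CPM in lung DT, against 455, 443, 424 and 351 CPM in lung PBS. Its LN libraries had 339, 151, 152 and 249 CPM in LN DT, against 126, 144, 117 and 133 CPM in LN PBS. All LN DT libraries exceeded all LN PBS libraries, 2 of them by 7 to 9 CPM over the highest, whereas all lung DT libraries lay below the lung PBS mean of 418 CPM, with 1 of them above the lowest PBS library. Of the 8 DT libraries, 7 lay above every LN PBS library and below every lung PBS library.

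In PBS mice Klrb1b was 3.22-fold higher in lung than in LN (log2 fold change 1.69 ± 0.30, 95% interval 1.06 to 2.31, adjusted p = 0.00327, edgeR's quasi-likelihood test). It was higher in 4 of 4 lung libraries than in any LN library, and was the only member of 6 called in that comparison, in which 3.61% of all genes were called and 2.7% were called higher. Klrb1b and Klrb1f were the 2 members whose lung and LN libraries did not overlap in PBS mice, against 19.2% of all genes. The call of Klrb1b held in all 22 alternatives, with log2 fold changes of 1.64 to 1.76. In DT mice the lung and LN libraries overlapped and the difference was 0.24 ± 0.29 (95% interval -0.37 to 0.85, adjusted p = 0.709, edgeR's test). The log2 fold change with DT was 0.78 ± 0.29 in LN (adjusted p = 0.304) and -0.66 ± 0.29 in lung (adjusted p = 0.308), neither called by edgeR's test. Their difference, LN minus lung, was 1.44 ± 0.41 (95% interval 0.57 to 2.31), with an unadjusted p of 0.00263 and an adjusted p of 0.785 by edgeR's test. Among all genes, 4.2% had an unadjusted p under 0.05 for this difference and 0.00717% were called, and of the members Klrb1b alone had an unadjusted p under 0.05 and none was called, nor was one by DESeq2 or limma-voom. Without the 2 Malat1-high libraries the difference was 1.34 (adjusted p = 0.461, edgeR's test).

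Klrb1f, which encodes the receptor for Clr-g, was the LN-rich receptor. It had 543, 152, 171 and 241 CPM in lung DT, against 349, 142, 217 and 266 CPM in lung PBS. LN levels were 1657, 852, 960.1 and 734 CPM in LN DT, against 718, 449, 613 and 499.9 CPM in LN PBS. Every LN library exceeded every lung library of the same treatment, and every LN DT library exceeded every LN PBS library, although LN DT replicate 4 was within 16 CPM of the highest PBS library. In DT mice Klrb1f was 3.80-fold lower in lung than in LN (log2 fold change -1.92 ± 0.40, 95% interval -2.77 to -1.08, adjusted p = 0.00816, edgeR's quasi-likelihood test), a call that held in all 23 alternatives (-2.44 to -1.59). In PBS mice the difference was -1.23 ± 0.39 with an adjusted p of 0.0935 by edgeR's test, and it passed in 5 of 22 alternatives.

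With DT, the log2 fold change of Klrb1f was 0.88 ± 0.39 in LN (adjusted p = 0.388) and 0.19 ± 0.39 in lung (adjusted p = 0.854), neither called by edgeR's test. The lung value rests on lung DT replicate 1, the library of 543 CPM: without both Malat1-high libraries it was -0.44, and the LN value was 0.57. The average over both tissues was 0.53 ± 0.27 (adjusted p = 0.253, edgeR's test) with all libraries and 0.06 without that pair.

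Clec2i, the ligand gene paired with Klrb1f, was LN-rich too. It had 64.3, 29.7, 67.3 and 70.1 CPM in lung DT, against 59.8, 22.1, 88.5 and 114 CPM in lung PBS. In LN, it had 268, 169, 192 and 116 CPM in LN DT, against 249.8, 94.9, 140.3 and 115 CPM in LN PBS. In DT mice no lung library reached the lowest LN library, whereas in PBS mice 1 lung library exceeded it. Klrb1f and Clec2i were the 2 members lower in lung without overlap in DT mice, against 6.08% of all genes. Clec2i was 3.21-fold lower in lung than in LN in DT mice (log2 fold change -1.68 ± 0.44, 95% interval -2.61 to -0.76, adjusted p = 0.0281, edgeR's quasi-likelihood test). In PBS mice the difference was -1.07 ± 0.43 (adjusted p = 0.200, edgeR's test).

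The call of Clec2i in DT mice was lost without LN DT replicate 1 (-1.43, adjusted p = 0.0743), 2 (-1.74, adjusted p = 0.0538) or 3 (-1.68, adjusted p = 0.0641), without lung DT replicate 2 (-1.47, adjusted p = 0.0748) and without both Malat1-high libraries (-1.52, adjusted p = 0.0562), all by edgeR's test. Klrb1f and Clec2i were the 2 members of 6 called between the tissues of DT mice, both lower in lung, where 6.75% of all genes were called and 2.78% were called lower. With the 8 DT libraries fitted alone and paired by replicate number, both were still called and 515 genes were called in all, against 941. With DT, Clec2i had a log2 fold change of -0.30 ± 0.43 in lung and 0.31 ± 0.43 in LN, with 95% intervals of -1.21 to 0.60 and -0.59 to 1.21. Its profile was the closest of any member's to that of Klrb1f, with a root mean square difference of 0.540 over 16 libraries. Of 8419 genes, 0.131% were closer to Clec2i than Klrb1f was, and 0.321% were closer to Klrb1f than Clec2i was.

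**Figure D3:**
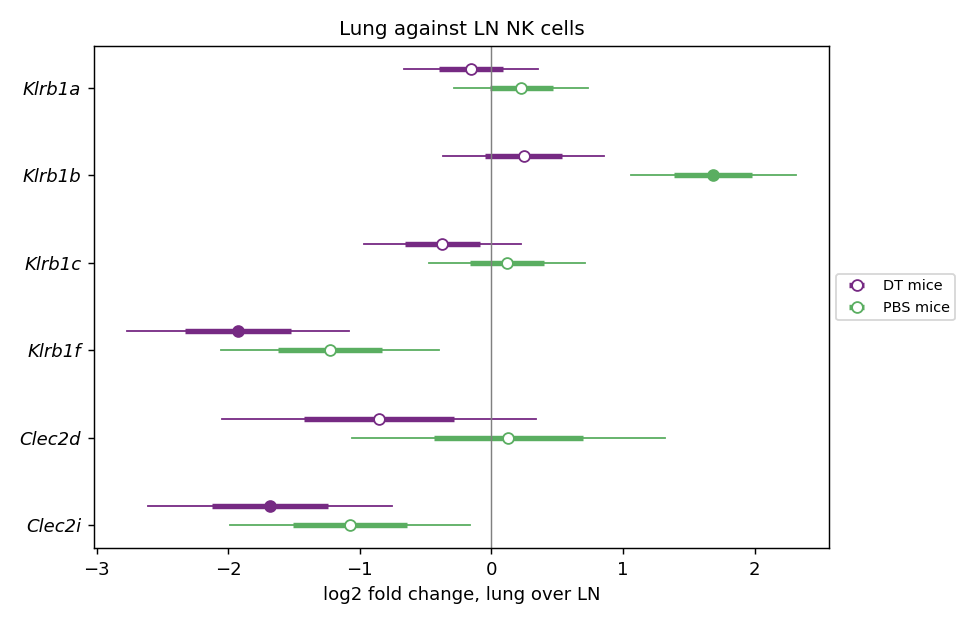
Log2 fold change of each gene, lung over LN, in DT mice and in PBS mice; thick bars are SE, thin bars 95% intervals, and filled points passed an adjusted p under 0.05. Klrb1b lies at 0.24 in DT mice and at 1.69 in PBS mice, and Klrb1f and Clec2i lie below 0 in both.

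Markers of other cells differed between lung and LN beside these genes. The 6 ILC1 markers (Itga1, Cxcr6, Tnfsf10, Il7r, Cd200r1 and Zfp683) summed to 17.6 to 104 CPM in lung DT and 39.1 to 72.0 CPM in lung PBS, and to 536 to 1039 CPM in LN DT and 425 to 756 CPM in LN PBS. All 6 had counts in every group, and 5 were tested, of which 2 (Cxcr6 and Il7r) were called lower in lung in each treatment. Tnfsf10 (-1.58 in DT mice and -2.58 in PBS mice), Itga1 (-0.15 in both) and Cd200r1 (-0.40 and 0.52) were not called. Of all genes, 6.75% were called between tissues in DT mice and 3.61% in PBS mice. The macrophage and monocyte markers summed to 395 to 3938 CPM in lung DT and 625 to 3448 CPM in lung PBS, against 816 to 1463 CPM in LN DT and 583 to 1071 CPM in LN PBS. Those 8 markers had counts in every group. Of them Cd68 was called higher and Ccr2 lower in lung in both treatments, and Lyz2 higher in DT mice. The 8 T cell markers, whose cells the CD3- gate is meant to remove, summed to 142 to 703 CPM in lung DT and 125 to 174 CPM in lung PBS, against 378 to 795 CPM in LN DT and 473 to 511 CPM in LN PBS. Cd8b1 was at 0 in both lung groups, and Cd3d (-3.36, adjusted p = 0.00436) and Cd3g (-3.01, adjusted p = 0.00437) were called lower in lung in PBS mice by edgeR's test. In DT mice the neutrophil markers S100a8, S100a9 and Retnlg were called higher in lung, and the B cell marker Cd22 and the plasma cell marker Jchain lower. The 6 neutrophil markers summed to 9.15 to 276 CPM in lung DT and 14.8 to 96.9 CPM in lung PBS, against 0.659 to 4.92 CPM in LN DT and 0 to 9.02 CPM in LN PBS, with Ly6g and Retnlg at 0 in both LN groups. Sftpc, of lung epithelium, was also called higher in lung in DT mice.

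Ncr1, the gene of the gate marker NKp46, was called lower in lung than in LN in DT mice too, at 3278 ± 958 CPM in lung DT and 6064 ± 1247 CPM in LN DT (SD, n = 4 each; -0.89 ± 0.25, adjusted p = 0.0381, edgeR's test). That call held without LN DT replicate 4, LN PBS replicate 1 or 2, lung DT replicate 1 or lung PBS replicate 4, and was lost without any of the other 11 libraries (adjusted p of up to 0.106) and with median-ratio size factors (adjusted p = 0.0538), by the same test. The part of Ncr1 or of any of these lists in the differences of Klrb1b, Klrb1f and Clec2i was not tested.

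Clec2d, the gene of the Klrb1b ligand Clr-b, was present at low level throughout. It had 20.5, 1.75, 9.23 and 9.28 CPM in lung DT, against 7.24, 9.97, 7.12 and 11.4 CPM in lung PBS. In LN, it had 18.6, 23.6, 18.5 and 12.97 CPM in LN DT, against 10.1, 7.62, 10.4 and 4.52 CPM in LN PBS. The LN groups did not overlap, and the lung DT libraries spanned the lung PBS range on both sides, from 14 counts in replicate 2 to 143 counts in replicate 1. Its log2 fold change with DT was 1.17 ± 0.57 in LN (95% interval -0.03 to 2.38, adjusted p = 0.433) and 0.19 ± 0.57 in lung (adjusted p = 0.900), neither called by edgeR's quasi-likelihood test. Lung against LN gave -0.85 ± 0.57 in DT mice (adjusted p = 0.436) and 0.13 ± 0.57 in PBS mice (adjusted p = 0.946), by the same test. The value in DT mice moved to -1.45 without the 2 Malat1-high libraries (adjusted p = 0.128, edgeR's test) and to -1.78 by limma-voom, which called it (adjusted p = 0.0479).

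Markers of other cells stood beside the higher LN values of DT mice. The 8 B cell markers summed to 152 to 951 CPM in LN DT and 72.2 to 125 CPM in LN PBS, and the 6 plasma cell markers to 109 to 399 CPM in LN DT and 36.2 to 52.6 CPM in LN PBS. The 8 dendritic cell markers summed to 51.8 to 357 CPM in LN DT and 51.4 to 75.3 CPM in LN PBS, so these ranges overlapped. In LN PBS, Clec9a, Cd209a and the plasma cell marker Tnfrsf17 were at 0. In the lung, the B cell sum was 10.8 to 154 CPM in DT and 11.8 to 94.1 CPM in PBS. LN DT replicates 2 and 3 had the highest B cell sums, 943 and 951 CPM. The part of these cells in the LN values of Clec2d, Klrb1b and Klrb1f was not tested.

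In LN, none of the 6 members was called with DT and 3 had an unadjusted p under 0.05 by edgeR's test, where 0.0646% of all genes were called and 11.8% had such a p. DESeq2 called none of the members and limma-voom 4, where they called 350 and 3736 of all genes. The LN groups did not overlap for 3 members, all higher with DT (Klrb1b, Klrb1f and Clec2d), against 5.05% of all genes. In the lung, none was called and 3 had an unadjusted p under 0.05 by edgeR's test, where 0.108% of all genes were called and 14.7% had such a p. DESeq2 called 1 and limma-voom 3, where they called 531 and 435 of all genes. The lung groups did not overlap for 2 members, both lower with DT (Klrb1a and Klrb1c), against 4.55% of all genes. The median log2 fold change of the members was 0.54 in LN and -0.48 in lung, beside 0.08 and 0.09 for all tested genes. Averaged over the tissues it was 0.03 for the members and 0.09 for all tested genes. For lung against LN it was -0.61 in DT mice and 0.12 in PBS mice, beside -0.04 and -0.01 for all tested genes.

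**Figure D4:**
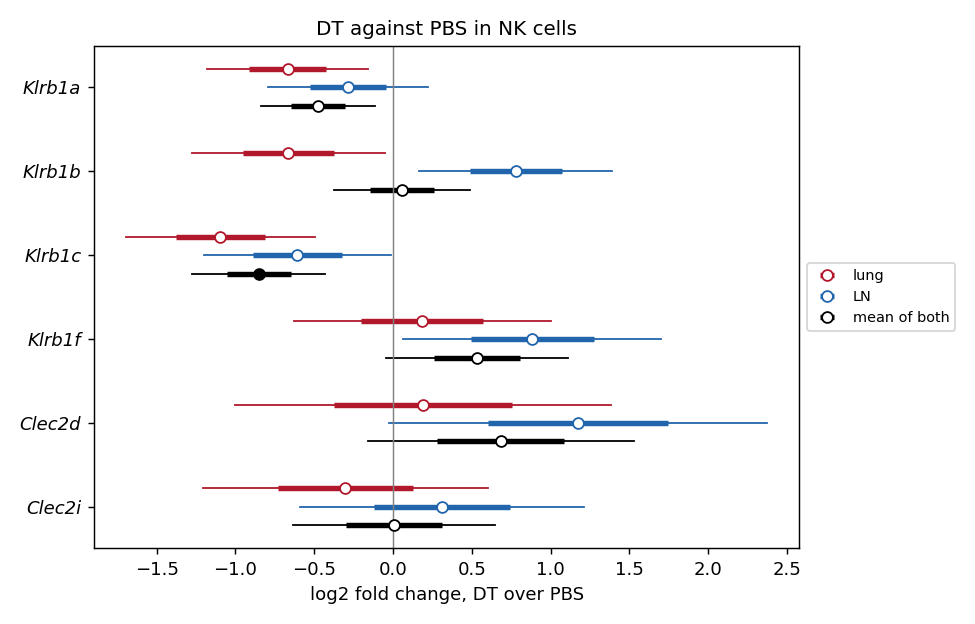
Log2 fold change of each gene, DT over PBS, in lung, in LN and averaged over both; thick bars are SE, thin bars 95% intervals, and the filled point passed an adjusted p under 0.05. Klrb1c in the average (-0.85) is the one filled point, and Klrb1b lies at -0.66 in lung and at 0.78 in LN.

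The make-up of the receptor transcripts, each taken per kb of exon and as a share of the sum of the 4 receptors, differed between groups. Klrb1f made up 20.9 ± 6.65% in lung DT and 12.4 ± 3.30% in lung PBS, and 49.3 ± 12.2% in LN DT and 30.5 ± 5.29% in LN PBS (SD, n = 4 each). Klrb1c made up 25.3 ± 4.55% in lung DT and 33.2 ± 1.71% in lung PBS, and 18.9 ± 8.03% in LN DT and 32.3 ± 2.43% in LN PBS. Within lung, the groups did not overlap for either share: Klrb1f was at 17.0 to 30.8% in DT and 7.86 to 15.3% in PBS, and Klrb1c at 19.8 to 30.9% in DT and 31.4 to 35.3% in PBS. In LN both shares overlapped, through LN DT replicate 4, whose shares were 32.4% for Klrb1f and 29.5% for Klrb1c.

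Klrb1b held 19.5 ± 4.53% in lung DT and 19.7 ± 2.53% in lung PBS, against 9.29 ± 1.78% in LN DT and 6.37 ± 0.815% in LN PBS (SD, n = 4 each). Every lung library thus had a larger share of the inhibitory receptor than any LN library, the lowest being 14.8% in lung and the highest 11.4% in LN. Klrb1a held 34.3 ± 1.26% in lung DT and 34.7 ± 2.19% in lung PBS, against 22.5 ± 4.55% in LN DT and 30.9 ± 2.60% in LN PBS. These shares describe the libraries, since 1 share sets the others, and no test was made of them.

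**Figure D5:**
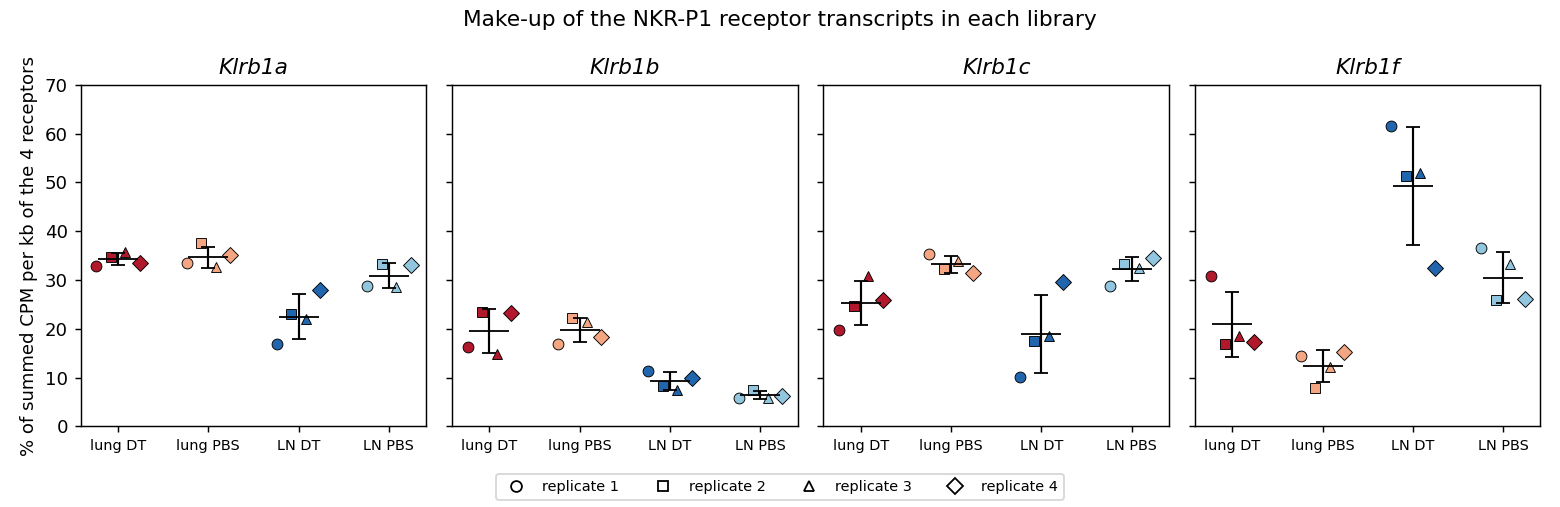
Share of each receptor gene in the summed CPM per kb of the 4 receptors, in each library; symbols give the replicate number and bars the mean and SD of 4 libraries. Klrb1f holds the largest share in LN DT (mean 49.3%), and Klrb1b holds more in lung (14.8% or more) than in LN (11.4% or less).

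The remaining NKR-P1 and Clr genes were scarce. Of 10 further family symbols 8 were in the table, and 3 passed the filter: Klrb1, Klrb1-ps1 and Clec2g. None of the 3 was called in any of the 6 comparisons by edgeR's test, and Clec2g alone had an unadjusted p under 0.05, in lung and in the average with DT. Clec2g had 0, 43, 68 and 20 counts in lung DT, against 2, 5, 3 and 1 counts in lung PBS. The LN counts were 6, 32, 28 and 8 counts in LN DT, against 1, 11, 0 and 1 counts in LN PBS. Its averaged log2 fold change with DT was 2.87 ± 0.98 (adjusted p = 0.0952, edgeR's test), and DESeq2 and limma-voom called it there, as limma-voom did in LN. By edgeR's test the average was called once the 2 Malat1-high libraries were left out (3.18, adjusted p = 0.0312). Its counts were highest in the DT libraries numbered 2 and 3, and lung DT replicate 1 had none. Those libraries had the highest B cell and dendritic cell sums of their groups, and in lung also the highest macrophage and neutrophil sums. Lung DT replicate 4, with 20 counts of Clec2g, had the lowest B cell sum of its group, 10.8 CPM. The part of these cells in the Clec2g counts was not tested. Klrb1 summed to 31 counts in lung DT, all in replicate 4, and 124 in lung PBS, and to 79 in LN DT and 95 in LN PBS. Klrb1-ps1, a pseudogene, summed to 23 counts in lung DT and 29 in lung PBS, and to 45 in LN DT and 31 in LN PBS. Clec2f, Clec2h, Clec2j and Clec2l had at most 14 counts in any group, and Clec2e had 0 counts in all 16 libraries.

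With all libraries, no signalling gene of these receptors was called with DT by edgeR's test. Of 15 tested genes, none was called in the average over tissues, 5 had an unadjusted p under 0.05 by edgeR's test (Fcer1g, Cd247, Lck, Ptpn6 and Lat), against 23.1% of all genes, and the median log2 fold change was -0.33, beside 0.09 for all tested genes. In this average DESeq2 called 1 of them (Lat) and limma-voom 7, where they called 1785 and 3781 of all genes. In lung both called Lat alone, where they called 531 and 435 of all genes. In LN DESeq2 called none and limma-voom 4, where they called 350 and 3736 of all genes. With the 2 Malat1-high libraries left out, edgeR's test called Fcer1g and Lat lower with DT, in the average (-0.73, adjusted p = 0.0243, and -0.48, adjusted p = 0.0269) and in lung (adjusted p = 0.0451 and 0.0160). Fcer1g encodes the FcR gamma chain that carries the signal of NKR-P1C. It had 980.2 ± 189 CPM in lung DT and 1711 ± 351 CPM in lung PBS, and 989.6 ± 318 CPM in LN DT and 1221 ± 268 CPM in LN PBS (SD, n = 4 each), and its averaged log2 fold change was -0.55 ± 0.19 (adjusted p = 0.0971, edgeR's test). Cd247, the CD3 zeta chain that pairs with other NK receptors, gave -0.56 ± 0.20 (adjusted p = 0.105), and the adaptor gene Lat gave -0.48 ± 0.14 (adjusted p = 0.0591), by the same test. Ptpn6, which encodes SHP-1, gave -0.47 ± 0.19 (adjusted p = 0.152, edgeR's test).

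Between tissues of DT mice, 1 of the 15 signalling genes was called, a share near the 6.75% of all genes: Lat was lower in lung than in LN in DT mice, at 117 ± 10.2 CPM in lung DT and 189 ± 28.1 CPM in LN DT (log2 fold change -0.68 ± 0.20, adjusted p = 0.0467, edgeR's test). That call was lost in each refit that left out 1 library except that without LN DT replicate 1, with adjusted p of up to 0.126 by edgeR's test. It was also lost with median-ratio size factors (adjusted p = 0.0626), with no filter (adjusted p = 0.137), with a replicate block (adjusted p = 0.0531) and in the DT libraries fitted alone as pairs (adjusted p = 0.103), all by edgeR's test. The call held in 4 of 22 alternatives, among them DESeq2, limma-voom and edgeR's test without the 2 Malat1-high libraries. None of the 15 was called in PBS mice by edgeR or DESeq2 and 3 by limma-voom, where these called 503, 1324 and 2296 of all genes. By edgeR's test Ptpn6 (-0.71 ± 0.27) and Plcg2 (0.61 ± 0.27) had an unadjusted p under 0.05 in that comparison. Ptpn6 was called there without the 2 Malat1-high libraries (-0.67, adjusted p = 0.0310, edgeR's test).

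Among other lectin receptors of the NK gene complex, Klrc3, of the NKG2 family, rose with DT. Of 17 listed genes 12 were tested, and Klrc3 was the 1 called in the average over tissues, where 3.9% of all genes were called. The median of the 12 in that average was 0.46, beside 0.09 for all tested genes. Klrc3 had 87.1 ± 16.5 CPM in lung DT and 41.9 ± 17.9 CPM in lung PBS, and 179 ± 31.9 CPM in LN DT and 107 ± 35.9 CPM in LN PBS, with a log2 fold change of 0.90 ± 0.23 (adjusted p = 0.0430, edgeR's test). That call held without LN DT replicate 4, lung DT replicate 1 or 2, or lung PBS replicate 4, and was lost without any of the other 12 libraries (0.72 to 0.96, adjusted p of up to 0.102, edgeR's test) and with no filter (adjusted p = 0.0515, edgeR's test). In all it held in 9 of 22 alternatives, among them DESeq2, limma-voom and the replicate block. The direction of Klrc3 with DT was opposite to that of Klrb1c, and like Klrb1f it was lower in lung than in LN in PBS mice (-1.35 ± 0.33, adjusted p = 0.0282, edgeR's test). Klrg1, an inhibitory receptor of mature NK cells, was higher in lung than in LN by 1.28 ± 0.30 in DT mice (adjusted p = 0.0167) and by 2.57 ± 0.32 in PBS mice (adjusted p = 1.13e-04) on the log2 scale, by edgeR's test. Klrb1b was called higher in lung in PBS mice alone. The Klrg1 call in DT mice was lost without LN DT replicate 2 (1.22, adjusted p = 0.0574) or 3 (1.18, adjusted p = 0.0650), and the Klrc3 call in PBS mice without LN PBS replicate 1 (-1.20), 3 (-1.35) or 4 (-1.25) or lung PBS replicate 1 (-1.37), 2 (-1.10) or 3 (-1.31), by edgeR's test. Clec7a, a myeloid lectin, was higher in lung in both treatments (adjusted p = 0.0126 in DT mice and 0.0275 in PBS mice, edgeR's test), beside the macrophage sums given above. In PBS mice that call was lost without LN PBS replicate 1, 2 or 4 or lung PBS replicate 2 (5.61 to 6.07, adjusted p of 0.0721 to 0.0985, edgeR's test), and neither limma-voom nor edgeR with no filter called it in either treatment, nor did the DT libraries fitted alone as pairs. Without the 2 Malat1-high libraries, Klrc1 (-1.33, adjusted p = 0.0162) and Klrc2 (-1.26, adjusted p = 0.0137) were called lower in lung in DT mice, and Klri2 lower with DT in the average (-0.77, adjusted p = 0.0263), by edgeR's test.

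The genes whose profiles over the 16 libraries were closest to each member are given as a description, by the root mean square difference of centred log2 CPM. They were Plscr1 (0.160) and Lman2 (0.177) for Klrb1a, and Lcp1 (0.217) and Sept1 (0.221) for Klrb1c. For Klrb1b they were Serpinb6b (0.306) and Samsn1 (0.360), and for Klrb1f Ms4a4b (0.343) and Tespa1 (0.380). For Clec2i they were Zfp760 (0.421) and Parp11 (0.470), and for Clec2d, the least deeply counted member, Cd200r1 (0.443) and Galnt3 (0.500).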

How the data were processed

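RNA of sorted NK cells was sequenced from Smart-seq2 libraries, per the labels' protocols. The submitters' processing notes name HISAT2, HTSeq and GRCm38; tool versions, the strand setting and the rule for shared reads are not stated. The deposited table holds raw counts per gene, whole numbers of 0 or more, in 16 columns, all of which were used. No gene row was unnamed and no 2 libraries were identical. Total counts of 3929560 to 10744934 set the precision.

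The 6 members were read out of a fit of the whole table in edgeR 4.0.16 (R 4.3.3): filterByExpr by group (minimum count 10, minimum total 15), TMM scaling, 4 group means and the robust quasi-likelihood F test, two-sided, with 12 residual degrees of freedom. In all, 6 comparisons were made, and calls need an adjusted p under 0.05 (Benjamini-Hochberg) across the 13940 genes tested. CPM use TMM-scaled sizes, with SD over 4 libraries, and SE are those implied by the F statistic. The comparisons share groups of libraries. Alternatives were median-ratio size factors, no filter, DESeq2 1.42.0, limma-voom (limma 3.58.1) with quality weights, a replicate block, leaving out libraries, and, chosen after seeing the data, the 8 DT libraries alone with a block and an exon length without shared bases. Likeness used log2 CPM with a prior count of 2, centred per gene, over protein-coding genes of at least 10 CPM. Exon lengths are from GENCODE M21 (GRCm38); all 6 members matched both it and the RefSeq promoter table, and promoters were aligned locally with Biopython 1.88. The fit was also run on counts simulated from its own model, with independent libraries and known changes in LN DT. That run does not cover the Malat1-high pair or libraries that deviate together.

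All 6 members are named, with family genes that have counts, the called genes and those of smallest p in the signalling and lectin lists. The members and lists were chosen with earlier results of these data known. Deviations from the group mean correlated between same-numbered lung DT and LN DT libraries in all 4 pairs (0.184 to 0.412). These numbers were therefore taken as pairs where the DT libraries were fitted alone, and the labels do not say what a number marks. The main fit took all libraries as independent, so the SE and p of values averaged over tissues may be too small.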

Additional observations from a re-analysis of the deposited data

Results flagged for a closer look

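Clec2i in lung DT replicate 2 stood at 29.7 CPM, far below the other 3 libraries of its group, which lay between 64.3 and 70.1 CPM. It was the single far library among 24 groups of 4 checked, and chance marks about 1 in 20 such groups. Without this library the difference of Clec2i between lung and LN in DT mice was -1.47 on the log2 scale and was no longer called (adjusted p = 0.0748, edgeR's quasi-likelihood test).

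Klrb1b moved in opposite directions with DT in the 2 tissues: all 4 LN DT libraries were above the LN PBS mean and all 4 lung DT libraries below the lung PBS mean. The difference of the effects, LN minus lung, was 1.44 on the log2 scale, and its test did not pass after adjustment over all genes (unadjusted p = 0.00263, adjusted p = 0.785, edgeR's quasi-likelihood test). It stayed between 1.18 and 1.63 in the 22 alternatives, with adjusted p of 0.180 or more.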

How the results depend on the processing

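The calls of Klrb1b between tissues in PBS mice and of Klrb1f between tissues in DT mice held in every alternative run, and all 48 group levels moved by less than 1 SD under other scalings. The number of members called changed as follows, and the cause was not tested. The all-gene counts of DESeq2, limma-voom and the fit without the Malat1-high pair are given at the end of this section. By DESeq2 it was 1 in lung with DT (Klrb1c) and 2 in lung against LN in PBS mice (Klrb1b and Klrb1f). By limma-voom it was 4 with DT in LN, 3 in lung, 2 in the average and 3 between tissues in DT mice (Clec2d added) and 3 in PBS mice. Without the 2 Malat1-high libraries it was 2 with DT in lung, 2 in the average, 1 between tissues in DT mice and 2 in PBS mice. Leaving out 1 library at a time gave 0 to 2 members in the average, 1 to 2 between tissues in DT mice and 1 to 2 in PBS mice. The replicate block, with the numbers not shown to pair the samples outside DT mice (correlations of -0.127 to 0.207), gave 2 members between tissues in PBS mice (Klrb1f at -1.28, adjusted p = 0.0104, edgeR); it changed no other member's call.

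Values near 0 changed sign. The averaged DT value was -0.0143 for Clec2i with no filter, -0.0107 for Klrb1b under the block and -0.33 for Klrb1b by limma-voom, which also gave -0.31 for Klrb1f and -0.48 for Clec2d in lung. Without the Malat1-high pair, Klrb1f was -0.44 and Clec2d -0.46 in lung, and Klrb1b was -0.16 and Clec2i -0.17 in the average. Over refits without 1 library, the averaged value ranged from -0.13 to 0.15 for Klrb1b and -0.20 to 0.18 for Clec2i. With DT in lung, it ranged from -0.42 to 0.40 for Klrb1f, -0.45 to 0.53 for Clec2d and -0.65 to 0.0109 for Clec2i. Lung against LN ranged from -0.32 to 0.0170 for Klrb1a and -0.51 to 0.00244 for Klrb1c in DT mice, and from -0.0676 to 0.27 for Clec2d and -0.0474 to 0.19 for Klrb1c in PBS mice.

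Over all genes, edgeR, DESeq2 and limma-voom called 9, 350 and 3736 with DT in LN, 15, 531 and 435 in lung, 544, 1785 and 3781 in the average, and 1, 36 and 0 for the difference of effects. Between tissues they called 941, 1996 and 1804 in DT mice and 503, 1324 and 2296 in PBS mice. Without the Malat1-high pair, edgeR called 24, 474 and 1373 for DT in LN, in lung and in the average. Between tissues it then called 1390 in DT mice and 1362 in PBS mice. With no filter it called 23 with DT in LN. Clec2d, with 14 to 179 counts per library, is the member most limited by depth.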
